A study of Schizosaccharomyces pombe with 12 samples.

Results

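Ribosome footprints of 9 genes for actin, its binding proteins and the contractile ring were compared between wild-type and delta4dus fission yeast (Schizosaccharomyces pombe). The genes were chosen by systematic ID and are act1 (SPBC32H8.12c.1), cdc8 (SPAC27F1.02c.1), cdc3 (SPAC4A8.15c.1), adf1 (SPAC20G4.06c.1), fim1 (SPBC1778.06c.1), arp2 (SPAC11H11.06.1), for3 (SPCC895.05.1), cdc12 (SPAC1F5.04c.1) and myo2 (SPCC645.05c.1), 9 of the 5136 rows in each deposited count table. Cells of both genotypes grew to mid-log phase without cycloheximide, with 3 footprint libraries and 3 total RNA libraries per genotype, lettered A to C. By its name, delta4dus lacks the 4 dihydrouridine synthase genes dus1 to dus4, whose enzymes reduce uridine to dihydrouridine in RNA. The labels give no other allele or treatment and do not say whether the letters mark separate cultures, so p-values measure the spread between these libraries, which may be technical. Cultures were sequenced whole, so more cells in a given stage and more footprints per cell cannot be told apart.

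Footprint libraries held 601969 to 2591755 counts and total RNA libraries 1886954 to 2199320 counts, and the 2 shallowest footprint libraries were wild type. Footprints of dus1 went from 128 counts in wild type to 0 in delta4dus, and those of dus3 from 263 to 2. In contrast, dus2 kept 14 counts (71 in wild type) and dus4 kept 35 (49 in wild type), in footprint libraries that were deeper in total in delta4dus. The total RNA row of dus1 held 133 counts in wild type and 226 in delta4dus, which goes against the genotype label when read as dus1 RNA.

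Fission yeast actin works in 3 structures. Branched filaments made by the Arp2/3 complex form cortical patches, where endocytosis takes place. Formins make unbranched filaments, which form the cables along which cargo moves through the cell and the contractile ring that divides it. The ring is pulled closed by myosin II as a septum grows behind it, and the daughter cells part when septum and wall are digested between them.

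Footprint levels were compared first, per kb of coding length, since longer coding regions collect more footprints. Coding lengths and gene names came from the RefSeq annotation of ASM294v3. Counts were scaled to CPM, which divides them by the TMM-adjusted library size so that depths can be compared. Together the 9 genes held 0.593% to 0.615% of all footprint counts, and act1 held 54.7% to 58.3% of that share.

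Actin itself had the highest density, 2772 ± 98.5 CPM per kb in wild type and 3357 ± 59.4 CPM per kb in delta4dus (SD, n = 3). Averaged over all 6 libraries, act1 ranked 126 of 5102 genes by density. The monomer-binding proteins came next in wild type, with cofilin (adf1) at 2191 ± 14.7 and profilin (cdc3) at 1160 ± 1.97 CPM per kb. Tropomyosin (cdc8), which winds along formin-made filaments, had 549.6 ± 63.2 CPM per kb. Fimbrin (fim1), which cross-links filaments in patches, had 291 ± 6.97, and arp2, the actin-related subunit of the Arp2/3 complex, had 181 ± 7.51 CPM per kb.

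The ring motor and the formins lay far below. Myosin II heavy chain (myo2) had 9.41 ± 1.36 CPM per kb in wild type, the cable formin for3 had 5.93 ± 0.532 and the ring formin cdc12 had 4.03 ± 0.673. By density, act1 thus stood at 687-fold the level of cdc12 in wild type. The order of the 9 genes was the same in both genotypes, and in each genotype the 3 libraries of every gene lay above the 3 libraries of the next gene. The narrowest step was that from for3 to cdc12. In wild type, the lowest for3 library had 5.34 and the highest cdc12 library 4.8 CPM per kb, from 15 to 51 counts per library for for3 and 17 to 36 for cdc12.

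**Figure D1:**
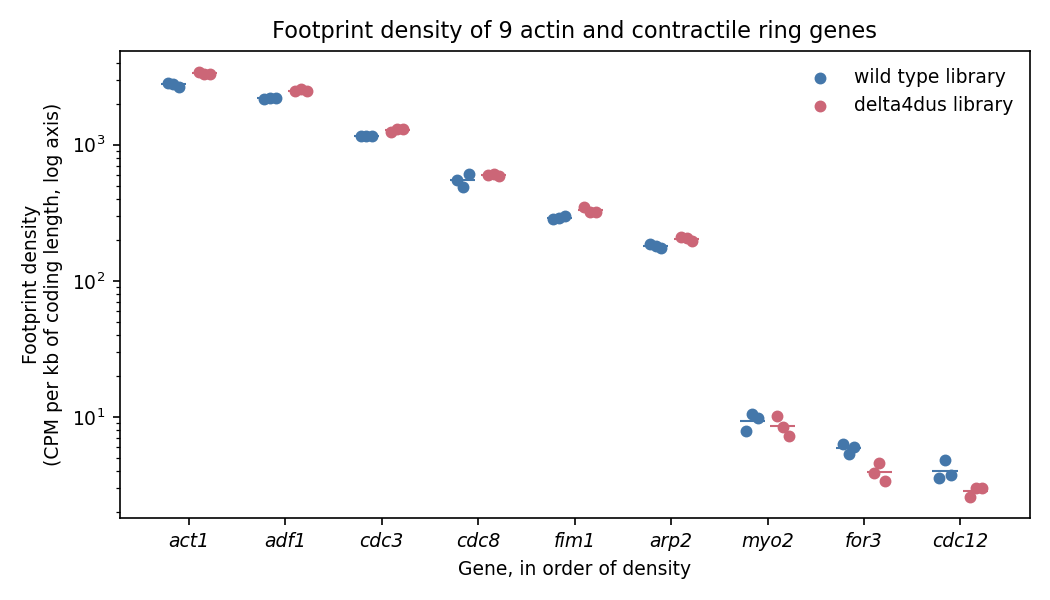
Footprint density in CPM per kb of coding length (log axis) for the 9 genes, with a point per library and a line at the mean of 3 libraries. From act1 at 2772 CPM per kb in wild type to cdc12 at 4.03, the order was the same in wild type and delta4dus.

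Footprints were then compared between genotypes to see how translation output of these genes differed in delta4dus. Relative to TMM-scaled libraries, actin, cofilin and fimbrin were higher in delta4dus by 13.5% to 20.9%, and the cable formin for3 fell by 35.4%. The rises depend on that scaling. The fall of for3 was also called on unscaled totals, where the median of all genes tested was -0.23. However, the for3 call was lost in 7 of 13 alternatives. The call of act1 was lost in 1 of 14, that of adf1 in 2 and that of fim1 in 4. All 9 genes passed the filter on low counts, and 3 rose, 1 fell and 5 did not pass an adjusted p of 0.05 (edgeR quasi-likelihood test, two-sided, Benjamini-Hochberg over 4505 genes). Across all genes tested, 14.5% rose and 14.1% fell (28.6% in either direction), a split of 654 and 635 that became 685 and 426 with an offset for coding length and 334 and 1397 on library totals. The median log2 fold change of the 9 was 0.15, against -0.03 for all genes tested. In TMM-scaled CPM, the libraries of the genotypes did not overlap in 7 of the 9 genes, which was so for 38.8% of all genes tested. The exceptions were cdc8 and myo2. As shares of raw footprint counts, only act1, for3 and cdc12 did not overlap, and no share over all genes was computed on that scale.

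TMM factors, which set the bulk of genes to no change, were 1.06 to 1.10 in wild-type and 0.917 to 0.942 in delta4dus footprint libraries. On library totals without these factors, an alternative chosen after seeing the data, the median of all genes tested moved from -0.03 to -0.23. There act1 changed by 0.06 (adjusted p = 0.123), adf1 by -0.013 (0.834) and fim1 by -0.024 (0.755), so none of the 3 rises was called. For3 (-0.83, adjusted p = 0.00344) and cdc12 (-0.63, adjusted p = 0.0393) fell on that scale. Adf1 took 0.0952% to 0.0999% of raw footprint counts in wild type and 0.0936% to 0.1001% in delta4dus, and fim1 0.0556% to 0.0607% and 0.0545% to 0.0593%, with overlapping genotypes in both. Cdc3 took 0.0471% to 0.0490% in wild type and 0.0436% to 0.0474% in delta4dus, and arp2 0.0224% to 0.0233% and 0.0213% to 0.0229%. These also overlapped between genotypes, with lower means in delta4dus. The log2 fold changes below are on the TMM scale unless named otherwise.

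For the filament genes, act1 had 3233, 3136 and 3011 CPM in wild-type libraries A, B and C and 3863, 3760 and 3736 CPM in delta4dus. Every delta4dus library lay above every wild-type library, and the log2 fold change was 0.27 (SE 0.0469, adjusted p = 1.64e-06). As a share of raw footprint counts, act1 took 0.332% to 0.341% in wild type and 0.347% to 0.354% in delta4dus. The tropomyosin gene cdc8 had 268, 236 and 297 CPM in wild type and 290.4, 297 and 285 CPM in delta4dus. Its genotypes overlapped, with wild-type library B lowest, and its change of 0.11 (95% interval -0.03 to 0.25, adjusted p = 0.275) did not pass.

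In TMM-scaled CPM, both monomer-binding genes lay higher in every delta4dus library, and only the cofilin gene passed. Cofilin severs old filaments and returns monomers to the pool. In wild type adf1 had 902, 914 and 906 CPM and in delta4dus 1022, 1063 and 1023 CPM, a log2 fold change of 0.19 (SE 0.0508, adjusted p = 0.00194). Profilin binds the returned monomers and hands them to formins. Its gene cdc3 had 446, 445 and 445 CPM in wild type and 476, 504 and 499 CPM in delta4dus, a change of 0.15 (95% interval 0.03 to 0.27, adjusted p = 0.0541). The cdc3 change passed with DESeq2 size factors (0.16, adjusted p = 0.0377) and without delta4dus library A (0.17, adjusted p = 0.0461).

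For the patch proteins, fim1 had 526, 533 and 551 CPM in wild type and 647, 593 and 587 CPM in delta4dus. All delta4dus libraries lay above all wild-type libraries, with library A highest, and fim1 rose by 0.18 (SE 0.058, adjusted p = 0.0117). The call was lost without wild-type library A (adjusted p = 0.079) or delta4dus library A (adjusted p = 0.099), and when only genes averaging 50 counts were tested (0.0514). The Arp2/3 subunit gene arp2 had 221, 212 and 203 CPM in wild type and 246, 243 and 229 CPM in delta4dus. On this scale these libraries did not overlap either, but the change of 0.16 (95% interval 0.01 to 0.31, adjusted p = 0.113) did not pass.

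The formin genes were low in counts, and their libraries lay lower in delta4dus. For3, which nucleates cables at cell tips, had 28.0, 23.4 and 26.6 CPM in wild type and 16.9, 20.2 and 15.0 CPM in delta4dus. It fell by 0.63 on the log2 scale (SE 0.23, adjusted p = 0.0311), from 15 to 51 counts per library. That call was lost without wild-type library A (adjusted p = 0.207) or C (0.0568), without delta4dus library A (0.0672) or C (0.156), and with DESeq2 (0.2). Cdc12, which nucleates ring filaments, had 19.8, 26.5 and 20.5 CPM in wild type and 14.4, 16.5 and 16.6 CPM in delta4dus. Its change of -0.42 (95% interval -0.92 to 0.07, adjusted p = 0.213) did not pass, although the libraries did not overlap.

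The motor gene myo2 had 36.2, 48.4 and 44.7 CPM in wild type and 46.8, 38.4 and 33.2 CPM in delta4dus. Its genotypes overlapped, and the difference of -0.08 (95% interval -0.44 to 0.27, adjusted p = 0.78) did not pass. At 31 to 80 counts per library, that interval reaches from -0.44 to 0.27, so neither a fall nor a rise within it is excluded.

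**Figure D2:**
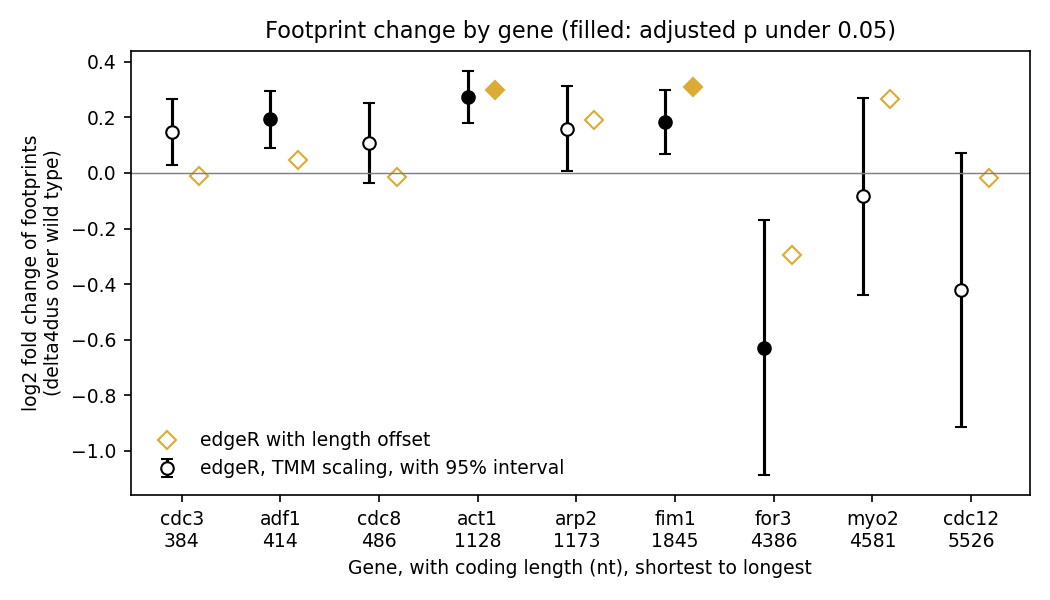
Log2 fold change of footprints, delta4dus over wild type, for the 9 genes from the shortest to the longest coding region. Circles with 95% intervals are the edgeR values and diamonds those after a length offset, and filled symbols have an adjusted p under 0.05. On this TMM scale act1 and fim1 passed both ways, adf1 and for3 without the offset only, and on library totals act1, adf1 and fim1 did not pass (0.06, -0.013 and -0.024).

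Fold changes across the genome followed coding length, and the 9 genes spread over its range. Coding length and footprint fold change were related by a Spearman correlation of -0.343 over 4490 genes, with all values from the same 6 libraries. The median log2 fold change was 0.20 in the shortest 10% of genes (78 to 423 nt) and -0.31 in the longest 10% (2778 to 14775 nt). The short cdc3 (384 nt) and adf1 (414 nt) belong to the shortest of these bins, cdc8 (486 nt) to the next, and for3 (4386 nt), myo2 (4581 nt) and cdc12 (5526 nt) to the last. The changes of cdc3 and adf1 were below their bin's median, whereas those of act1 (0.27, bin median -0.02) and fim1 (0.18, bin median -0.12) lay on the other side of 0 from theirs.

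The fit was repeated with an offset per library that follows coding length. Act1 kept its change (0.30, adjusted p = 8.54e-07) and the change of fim1 was larger (0.31, adjusted p = 1.93e-05). The call of adf1 was lost (0.05, adjusted p = 0.586), and so was that of for3 (-0.30, adjusted p = 0.389). Cdc12 moved to -0.02, arp2 to 0.19 (adjusted p = 0.0626) and myo2 to 0.26 (adjusted p = 0.295). The short genes cdc8 and cdc3 moved to -0.01 each. What underlies the relation with length was not tested.

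To see whether the other proteins kept their proportion to actin, each density was divided by that of act1 in the same library, a ratio that library scaling does not touch. All 8 ratios had lower means in delta4dus, and they share act1 as denominator. On the TMM scale, 80.3% of the 4505 genes tested had a lower log2 fold change than act1. For the overlap of ratios between genotypes, no share over all genes was computed. With 3 libraries against 3, an exact two-sided permutation test cannot give less than 0.1, so none could pass. For3, cdc12 and myo2, the 3 longest of the genes, had the largest differences. For3 went from 0.00213 of the act1 density in wild type to 0.00117 in delta4dus (geometric means), a 0.548-fold ratio, and cdc12 from 0.00144 to 0.000852, a 0.59-fold ratio. In both, each delta4dus library had a smaller ratio than any wild-type library (exact p = 0.1 each). Myo2 changed to 0.754-fold with overlapping libraries (exact p = 0.2). The 5 other genes stayed within 0.902- to 0.943-fold of their wild-type ratio, and of these the libraries of cdc3 and arp2 did not overlap between genotypes. These ratios carry no correction for coding length. From the fits with the length offset, the log2 differences to act1 were -0.60 for for3, -0.32 for cdc12 and -0.04 for myo2, against -0.31 for cdc8, -0.31 for cdc3, -0.25 for adf1, -0.11 for arp2 and 0.0087 for fim1.

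**Figure D3:**
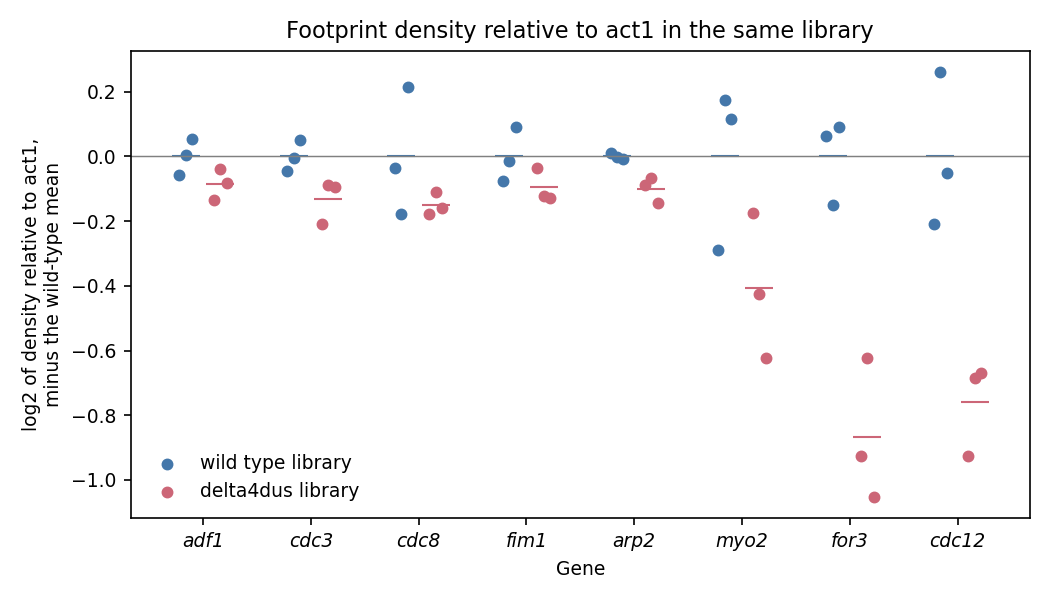
Log2 of each gene's footprint density relative to act1 in the same library, with the wild-type mean of that gene set to 0. Points are libraries and lines are means of 3. For3 and cdc12 are the lowest in delta4dus, at mean differences of -0.87 and -0.76.

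The genes whose footprints followed act1 most closely over the 6 libraries were taken from 1577 genes with a mean of at least 100 counts, by the root mean square difference of log2 CPM centred per gene. They were eca39, a branched-chain amino acid aminotransferase (0.0144), SPBC887.17, annotated as a transmembrane transporter (0.0148), and cpc2, the RACK1 protein of the small ribosomal subunit (0.0157). Of the other genes described here, arp2 ranked 93 and adf1 ranked 110 by this measure, while cdc8 ranked 611.

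Total RNA of both genotypes was sequenced as a measure of mRNA abundance, but the rows of these genes held few counts. Act1, with 2008 to 8994 footprint counts per library, had 6 to 22 total RNA counts per library. Cdc3 had 0 to 2, adf1 had 1 to 6, fim1 had 2 to 8, cdc8 had 2 to 12 and for3 had 3 to 12. The most total RNA counts belonged to the gene with the lowest footprint density, cdc12, with 127 to 261 per library. Across 5102 genes, total RNA rows had a Spearman correlation of -0.215 with their own footprints. In 1908 genes, exons overlap a footprint-covered gene on the opposite strand. There the Spearman correlation of total RNA rows with that partner's footprint density times the overlap length was 0.695, from the same libraries. Overlap length is thus part of that measure. Rows with no annotated gene opposite them had a median of 4.97 total RNA CPM, against 50.5 in the 1908. Act1, cdc3, adf1 and fim1 have no annotated gene on the opposite strand in ASM294v3. Noncoding RNAs overlap cdc8, arp2, for3, cdc12 and myo2 there, and nse3, a subunit of the Smc5-6 complex, overlaps myo2 by 144 nt. The libraries were strand-specific per the labels, while the strand setting of the counting is not given in the sources used here, so the values below are those of the rows and are not read as mRNA of these genes.

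**Figure D4:**
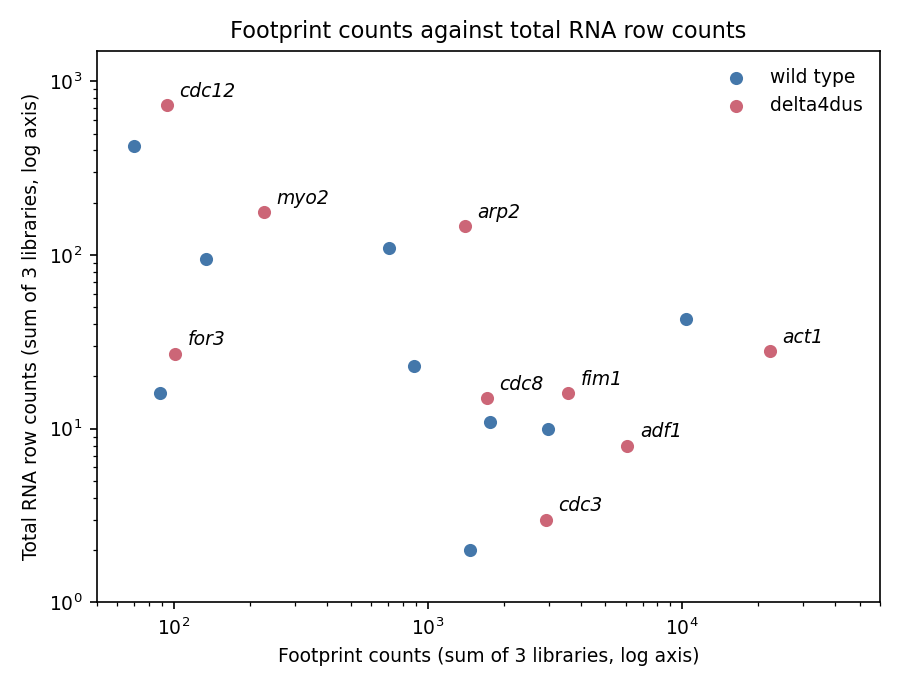
Footprint counts (x axis) against total RNA row counts (y axis) of the 9 genes, each summed over 3 libraries per genotype, on log axes. Act1 has the most footprints with 43 and 28 total RNA counts, and cdc12 the most total RNA counts, 424 and 726.

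Of the 9 total RNA rows, 4 passed the filter on low counts, and 2 of these rose, those of cdc12 and myo2. Across the 3791 rows tested, 12.5% rose and 10.4% fell, a split of 475 and 394 that became 376 and 527 with DESeq2 size factors and 229 and 420 with DESeq2, and 825 and 81 on library totals, where the median of all rows moved from 0.08 to 0.27. In 37.1% of those rows the libraries of the genotypes did not overlap. The cdc12 row had 162, 127 and 135 counts in wild type and 261, 215 and 250 in delta4dus. All delta4dus libraries lay higher, by a log2 fold change of 0.57 (SE 0.121, adjusted p = 0.00438, edgeR). The myo2 row had 33, 34 and 28 counts in wild type and 69, 62 and 45 in delta4dus, a rise of 0.67 (SE 0.193, adjusted p = 0.0216). The myo2 call was lost with DESeq2 (adjusted p = 0.101) and without wild-type library A (0.0564) or C (0.0754) or delta4dus library A (0.095) or B (0.0834). The act1 row had 22, 7 and 14 counts in wild type and 9, 13 and 6 in delta4dus, and its change of -0.82 (adjusted p = 0.17) did not pass, though it did without wild-type library B (-1.15, adjusted p = 0.0462). The arp2 row, with 28 to 57 counts, changed by 0.21 (adjusted p = 0.544).

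Footprints per total RNA row were tested as the genotype by assay interaction, the form that gives translational efficiency where total RNA holds the mRNA. Of the 3330 genes tested, 6.34% rose and 13.9% fell, 211 and 463 genes, against 212 and 283 with DESeq2 and 69 and 1231 on library totals, where the median of all genes moved from -0.15 to -0.53. In the 4 genes tested, the ratio rose for act1 (1.12, SE 0.385, adjusted p = 0.0355) and fell for cdc12 (-0.96, SE 0.265, adjusted p = 0.00879) and myo2 (-0.73, SE 0.266, adjusted p = 0.0486), while arp2 changed by -0.01 (adjusted p = 0.976). Act1 lost its call without the wild-type libraries A (adjusted p = 0.29) or C (0.0576) or the delta4dus libraries A (0.128) or C (0.122), at changes of 0.74 to 1.16, and on library totals (0.73, 0.109). Cdc12 lost it without the wild-type libraries B (-0.79, adjusted p = 0.058), thinned to equal depth (-0.89, 0.0642) and with the length offset (-0.57, 0.133). Myo2 lost it without the libraries of any 1 letter of a genotype (adjusted p = 0.0639 to 0.207). In all, its call was lost in 11 of 13 alternatives. Over these 13 the change ranged from -1.12 to -0.40, with adjusted p of up to 0.322.

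The authors' deposited table gives act1 a log2 change of 1.45 in this ratio with an adjusted p of 0.00273, built from log2 changes of 0.36 in footprints and -1.09 in total RNA. In the authors' deposited table the other 7 genes with a value have adjusted p-values of 0.07 (cdc8, 1.30) to 0.848 (fim1, 0.22), and cdc3 has none. Across all 4878 rows with a value there, 747 (15.3%) have an adjusted p under 0.05. The median log2 change of all these rows is 0.05 in footprints and -0.17 in total RNA. The footprint changes in the authors' deposited table have the same signs as those given above for all 8 genes, from -0.52 for for3 to 0.36 for act1.

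Footprints of other actin and cytokinesis genes were counted in 9 lists, 85 genes of which 84 were tested. In all, 14 rose, 14 fell and 56 did not pass, with a median log2 fold change of -0.08, beside 14.5% and 14.1% of all genes tested and a median of -0.03. On library totals 10 rose and 33 fell. All 7 genes of cell separation rose, with a median of 1.19, and 4 of 10 septum synthesis genes fell. In the septation initiation network 12 of 13 genes did not pass. Only 2 of these 13 averaged at least 50 counts, so not passing is not read as no change there.

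The cell separation list holds genes for enzymes and wall proteins at the septum. Adg2 rose from 129 ± 9.91 to 356 ± 18.5 CPM (log2 fold change 1.43), adg1 from 101 ± 8.81 to 219.8 ± 13.5 CPM (1.08), and eng1, the glucanase that digests the primary septum, from 79.9 ± 3.4 to 184 ± 1.84 CPM (1.21). All 7 passed under all the alternatives in which they were tested. In the septin list, mid2, which organises the septin ring, rose from 110 ± 18.1 to 230.4 ± 3.99 CPM (0.99). The other 4 of the 5 genes listed, the septin genes spn1 to spn4, did not pass. In the septum synthesis list, the glucan synthase genes bgs4 (-0.42), ags1 (-0.45) and bgs3 (-0.52) fell. Their coding regions of 5481 to 7233 nt are among the longest, and with the length offset they changed by 0.01, 0.05 and -0.12 and did not pass.

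Genes of the patch, cable and ring lists were called in both directions, many of them narrowly. In the Arp2/3 list, arc5, a subunit of the complex, rose (0.36), and the activators pan1 (-0.36), the type I myosin gene myo1 (-0.21) and dip1 (-1.04) fell, while 7 of 11 did not pass. The myo1 call was lost without wild-type library A or C or delta4dus library A or C (adjusted p = 0.0584 to 0.183), and that of dip1 without wild-type library A or B or delta4dus library A or C (0.0524 to 0.231). With the length offset pan1 moved to 0.04 (adjusted p = 0.777) and myo1 to 0.08 (0.479), and arc5 was not called either (0.23, 0.0792) nor on library totals (0.15, 0.221). Of the filament turnover genes, the capping protein subunit gene acp2 rose (0.39; 0.19 and not called on library totals, adjusted p = 0.113), app1 fell (-0.63, lost without delta4dus library C, adjusted p = 0.096) and 9 of 11 did not pass.

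The genes of the type V myosins, which carry cargo on cables, were called lower, but neither with the length offset nor at equal depth. With the offset myo51 moved to -0.17 (adjusted p = 0.596) and myo52 to -0.33 (0.19), and thinned to equal depth to -0.09 (0.877) and -0.30 (0.48). The myo52 call (-0.68) was lost without wild-type library A (adjusted p = 0.134) or delta4dus library C (0.0661), and the myo51 call (-0.51) without any 1 library but wild-type C (0.0674 to 0.298). Calmodulin (cam1) rose by 0.21, a call lost without wild-type library A or C or delta4dus library B or C (0.0684 to 0.171), with the length offset (0.08, 0.543) and on library totals (0.0097, 0.939), and 4 of 7 genes of that list did not pass. In the polarity list cdc42, which directs polarised growth, rose from 237 ± 8.47 to 313 ± 13.6 CPM (0.39). There spa2 fell (-0.48, lost without delta4dus library A, adjusted p = 0.0688), as did pob1 (-0.28, lost without any 1 library but delta4dus A, 0.0524 to 0.223), and 5 of 8 did not pass. With the length offset spa2 (-0.34, adjusted p = 0.0938) and pob1 (-0.09, 0.61) were not called.

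Among ring scaffolds, the paxillin-like pxl1 rose from 31.7 ± 7.25 to 56.0 ± 4.21 CPM (0.75). The IQGAP gene rng2 fell (-0.55, lost without wild-type library A, adjusted p = 0.0664, or delta4dus library B, 0.0685), as did rga7 (-0.36, lost without wild-type library A or C or delta4dus library A, 0.0702 to 0.252), and 9 of 12 did not pass. With the length offset rng2 moved to -0.21 (adjusted p = 0.414) and rga7 to -0.21 (0.264). In the septation initiation network, ppc89 rose (0.62, lost without wild-type library A or delta4dus library A or B, 0.0779 to 0.559, and on library totals, 0.42, 0.171). Of the 23 genes that the naming rule gave, cdc42, pxl1, mid2, eng1, adg1 and adg2 passed under each alternative, and 17 were lost under at least 1.

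**Figure D5:**
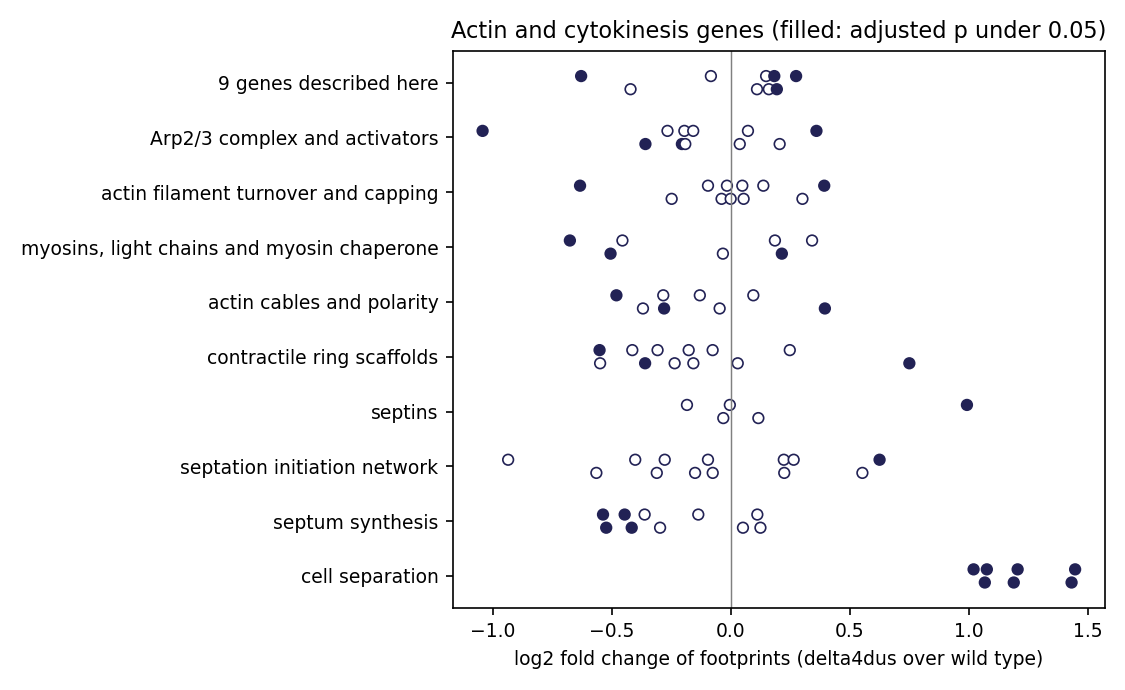
Log2 fold change of footprints, delta4dus over wild type, with a point per gene for the 9 genes and the 9 lists of other actin and cytokinesis genes. Filled points have an adjusted p under 0.05. The 7 cell separation genes, with a median of 1.19, all lie to the right of 0.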

How the data were processed

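Footprints of 28 to 32 nt and total RNA were sequenced in 12 libraries, 3 per genotype and assay. The deposited tables hold raw counts per row, made by the authors with Trimmomatic 0.36, Bowtie2 2.4, HISAT2 and featureCounts on ASM294v2, per the submitters' processing notes. A further table deposited by the authors holds log2 changes and p-values, whose method is not given in the sources used here. Gene names, coding lengths and opposite-strand overlaps came from RefSeq (ASM294v3), which matched 5102 of 5136 rows by ID.

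Each assay was fitted with edgeR 4.0.16 (TMM, filterByExpr, quasi-likelihood F-test, Benjamini-Hochberg over all genes tested, threshold 0.05), and footprints per total RNA row by an interaction term of genotype and assay in 1 fit of all 12 libraries. Standard errors are the fold change over the root of F. Scripts were tested on simulated data. Alternatives were DESeq2 1.42.0, its size factors in edgeR, other count filters, libraries left out, a replicate block, thinning to the shallowest library and a loess length offset (span 0.5), and library totals without TMM factors, added after seeing the data. Counts per library limit the precision of the formin and myosin values, and errors over libraries do not cover differences between strains.

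The 9 genes and the 9 lists were chosen with earlier results of these data known. Of each list, up to 3 called genes per direction with the smallest p were named, with the 3 genes most like act1 and opposite-strand genes. Values of 1 gene of the cell separation list are not reported here.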

Additional observations from a re-analysis of the deposited data

How the results depend on the processing

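The signs of act1, for3 and cdc12 in footprints held under every alternative run, and act1 passed under each but library totals without TMM factors, chosen after seeing the data. On these totals cdc8 turned to -0.096, cdc3 to -0.057, adf1 to -0.013, fim1 to -0.024 and arp2 to -0.045, 0 of the 9 genes were higher and 2 lower in footprints, 33 pathway genes were lower and 0 of the 9 were higher in the ratio. With a library left out, the level order kept 8 of 8 neighbouring genes apart in each genotype. That had to follow, since all libraries of neighbouring genes already lay apart, so it adds no support. With the length offset cdc8 moved to -0.014, cdc3 to -0.0097 and myo2 to 0.26, and with a library left out myo2 ranged from -0.25 to 0.044. The arp2 ratio of footprints to total RNA row turned to 0.063 with DESeq2 and 0.062 with its size factors, and ranged from -0.24 to 0.15 with libraries left out.

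Of the 9 genes, 1 was lower in footprints, and 0 with DESeq2, a mean of 50 counts or the length offset (0 to 1 with a library left out, for 2 to 3 higher). In total RNA rows 1 was higher with DESeq2 or a mean of 50 counts (1 to 2 with a library left out, for 0 to 1 lower). In the ratio 0 were higher with a mean of 50 counts (0 to 1 with libraries left out). Lower in the ratio was 1 with DESeq2, its size factors or no filter, and 0 with a mean of 50 counts, thinning or the length offset (0 to 1 with libraries left out). Of the pathway genes 5 were lower with DESeq2, 8 thinned and 4 with the length offset (9 to 15 with a library left out). A mean of 50 counts left fewer genes tested. For the other changes the cause was not tested.

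Of the values of single genes, 166 kept their side and direction, 36 were lost, 4 gained and 15 reversed. Calls over all genes went from 1289 to 818 (DESeq2) and 792 (thinned) in footprints. In total RNA rows they went from 869 to 494 (replicate block) and to 523, 449 and 493 without wild-type A, delta4dus A or delta4dus B. In the ratio they went from 674 to 226 (mean of 50 counts), 390 (thinned), 426 (without wild-type A) and 1300 (library totals). Differences to act1 with the length offset, also added later, were -0.31 (cdc3), -0.25 (adf1), 0.0087 (fim1), -0.60 (for3), -0.32 (cdc12) and -0.036 (myo2).

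For each gene, the deviation of log2 CPM from its genotype mean was taken in each library. Between the wild-type and delta4dus libraries of the same letter (A, B, C), these deviations correlated by 0.0539, 0.0336 and 0.032 in footprints. In total RNA they correlated by 0.00625, -0.0571 and -0.197, so the letters were not taken to pair the libraries. With a replicate block 0 of the 9 genes were lower in footprints, since for3 had an adjusted p of 0.0619.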
